A study of Mus musculus with 3 samples.

Results

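The cells described here are barcodes in which more than 10% of the captured RNA molecules came from the mitochondrial genome. A barcode stands for the contents of 1 droplet, and each molecule was counted once through its unique molecular identifier (UMI). Barcodes were taken from all 3 libraries if they held at least 1000 detected genes and more than 10% of their UMIs came from the 13 genes whose symbols start with mt-. There were 1296 such high-share barcodes among 20048 deposited barcodes and among 17093 with at least 1000 genes, and the other 15797, at or below 10%, were the low-share barcodes they were compared with. The libraries were 1 each from mouse retina at postnatal days 6, 8 and 11 (P6, P8 and P11). All mice carried Cx57icre, a Cre driver named for a connexin of horizontal cells, and Ai14, a reporter that makes red fluorescent protein once Cre has acted. Retinas were dissociated with papain, cells were sorted by fluorescence, and RNA was captured by droplets and read near its 3′ end. No other genotype, treatment or unsorted control was analysed here, the number of mice in each library is not given in the sources used here, and with 1 library per age, age and library cannot be told apart.

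Mitochondria make a few of their own respiratory chain subunits from their own genome, inside the organelle. All other mitochondrial proteins, and all ribosomal proteins, are made from nuclear genes whose messages are read by ribosomes in the cytosol. Messages for secreted and membrane proteins are usually read on ribosomes docked to the endoplasmic reticulum (ER), and some long noncoding RNAs, Malat1 among them, stay in the nucleus. The share of mitochondrial UMIs is a common measure for removing damaged cells from droplet data, and horizontal cells are inhibitory interneurons that contact rods and cones. The high-share barcodes were chosen by the measured mitochondrial UMIs, total UMIs and detected genes of each barcode, and these values are described first, without a test.

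**Figure D1:**
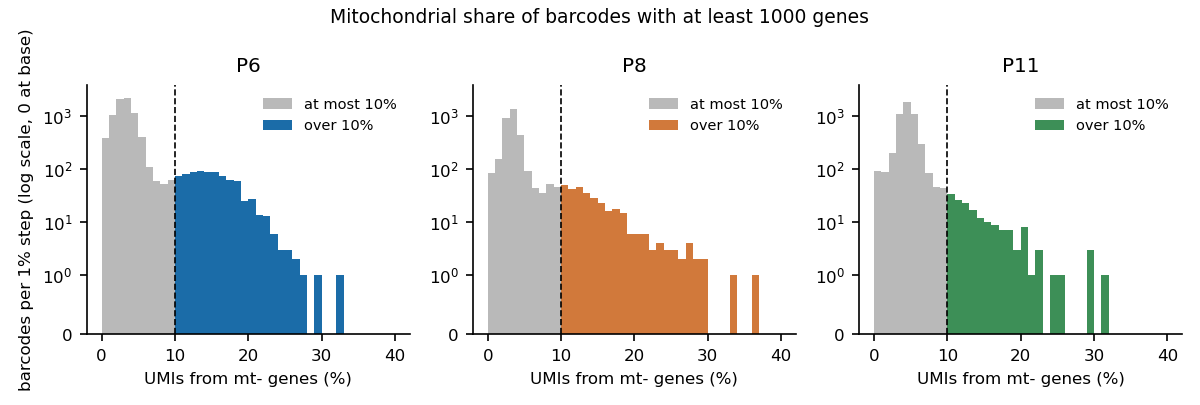
Number of barcodes with at least 1000 genes (y axis, log scale with 0 at the base) in each 1% step of the share of UMIs from mt- genes (x axis, percent), 1 panel per library. The coloured bars right of the dashed line at 10% are the 811 high-share barcodes at P6, 319 at P8 and 166 at P11, which form a shoulder or tail beside the main peak at a few percent.

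High-share barcodes were 811 of 8383 at P6 (9.67%, exact Clopper-Pearson 95% interval 9.05% to 10.3%). They were 319 of 3601 at P8 (8.86%, 7.95% to 9.83%) and 166 of 5109 at P11 (3.25%, 2.78% to 3.77%). The P11 share lay below both others, and the P6 and P8 intervals overlapped, where the intervals cover counting error only. Just outside the limit, from 9% to 10%, lay 63, 46 and 44 barcodes at P6, P8 and P11, and just inside, from 10% to 11%, lay 76, 50 and 34. The plot of barcodes by share shows no gap at 10%. The median share among high-share barcodes was 14.8%, 13.5% and 13.0%, against 3.10%, 3.30% and 4.53% in low-share barcodes. The highest share in any of them was 36.1%, and 71, 37 and 18 barcodes passed 20%. Below the minimum of 1000 genes, 24.2%, 23.0% and 15.7% of barcodes also exceeded 10%, and these were not used. The 3 libraries held 65546590 to 105561999 UMIs in all. They had 13 (P6 and P8), 15 (P6 and P11) and 8 (P8 and P11) barcode sequences in common.

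The high share went with fewer nuclear-encoded UMIs more than with added mitochondrial ones. The median of UMIs other than mitochondrial was 3057, 4683 and 5964.5 in high-share barcodes at P6, P8 and P11, against 11383, 19832 and 20899 in low-share barcodes. On average, a high-share barcode held 0.302, 0.249 and 0.307 times the nuclear-encoded UMIs of a low-share barcode of its library. Its mean of mitochondrial UMIs was 554 against 363 at P6, 749 against 654 at P8 and 962 against 961 at P11, or 1.52, 1.14 and 1.001 times. At P11 the mitochondrial content of both classes was thus nearly the same in UMIs per barcode. Which mitochondrial genes made up that content also differed little. Of all mitochondrial UMIs at P6, mt-Atp6, a subunit of the ATP synthase, gave 21.1% in high-share and 19.6% in low-share barcodes, and mt-Co2, a cytochrome oxidase subunit, gave 19.1% and 18.2%. Across the 3 libraries the ratio of the high-share to the low-share percentage ran from 0.809 to 0.878 for mt-Nd4 and from 1.07 to 1.13 for mt-Atp6. The other mt- genes lay between 0.794 (mt-Nd1 in 1 library) and 1.25 (mt-Atp8 in 1 library).

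**Figure D2:**
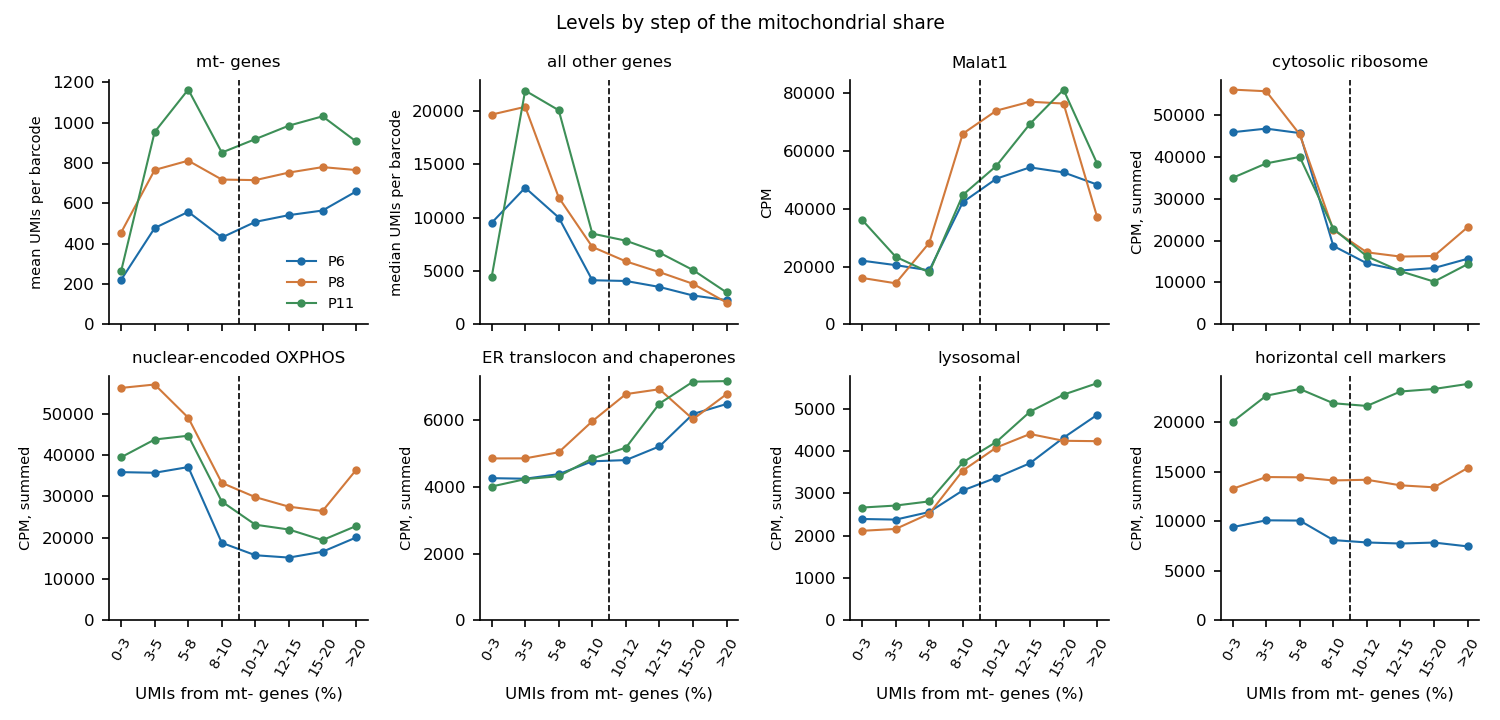
Levels in steps of the mitochondrial share (x axis, percent of UMIs) for the 3 libraries: mean mt- UMIs per barcode, median other UMIs per barcode, and summed counts per 1000000 nuclear-encoded UMIs (CPM) of Malat1 and 5 gene lists (y axes from 0). The dashed line is the 10% limit. Cytosolic ribosome and respiratory chain messages are lower and Malat1 is higher in the 8 to 10% step than in the 5 to 8% step in every library. Between these steps horizontal cell markers go from 10068 to 8096 CPM at P6 and change less at P8 and P11.

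The panels by step of the share show that the low-share barcodes closest to the limit already resembled the high-share ones. At P6, messages of cytosolic ribosomal proteins summed to 45673 CPM in barcodes with 5 to 8% mitochondrial UMIs. They summed to 18727 CPM from 8 to 10% and to 14568 CPM from 10 to 12%. At P8 the same steps gave 45349, 22568 and 17196 CPM, and at P11 39978, 22844 and 16236 CPM. Malat1 went the other way, from 18707 to 42306 and 50466 CPM at P6, from 28243 to 66046 and 74038 at P8, and from 18003 to 44822 and 54909 at P11. Above 20% the ribosomal sum was higher again than at 15 to 20% in each library, for instance 23196 against 16321 CPM at P8, where 37 barcodes lay above 20%. These steps share their libraries and differ in depth, with a median of 2278, 2045 and 2993 nuclear-encoded UMIs above 20%.

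Most high-share barcodes held transcripts of several horizontal cell markers, while the fluorescent reporter used for the sort was not examined. The 11 detected marker genes of horizontal cells summed to 7789 CPM in high-share and 9786 CPM in low-share barcodes at P6, to 13902 and 14047 at P8, and to 22553 and 22768 at P11. The sum was higher at P11 than at P6 in both classes. With every barcode thinned to 1300 nuclear-encoded UMIs, 96.2% of high-share barcodes at P6, 99.7% at P8 and 98.8% at P11 still held UMIs of at least 3 of these markers. The same thinning gave 96.9%, 98.0% and 98.2% of all low-share barcodes, and 56.8%, 50.9% and 58.3% of the low-share barcodes that held at least 3 rod markers, a set that serves as background. Before thinning the high-share values were 98.9% at P6, all 319 barcodes at P8 and 99.4% at P11, the low-share values 98.9%, 99.4% and 99.4%, and the rod-marked values 76.1%, 76.4% and 76.7%. The median depths were 3057, 4683 and 5964.5 UMIs in the high-share barcodes and 2986.5, 2352 and 2412.5 in the rod-marked ones.

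Single horizontal cell markers did not all keep their share of the RNA. Onecut1 and Onecut2, Lhx1 and Tfap2b are transcription factors that specify these cells, Calb1 is the calcium buffer calbindin, and Slc4a3 is an anion exchanger in the plasma membrane. Lhx1 (chromosome 11, 84518284 to 84525535) was at 357, 546 and 445 CPM in the high-share sums of P6, P8 and P11 and at 717, 849 and 823 CPM in the low-share sums. No high-share value reached a low-share one. Its log2 fold change, high over low share, was -0.84 ± 0.14 (SE, 3 sums a side, edgeR quasi-likelihood test, adjusted p = 1.72e-08). Slc4a3 (chromosome 1, 75546266 to 75562172) was at 1175, 2227 and 4891 CPM against 520.1, 878 and 2253 CPM. It was more than 2-fold higher within each library, while values of different libraries overlapped, with a log2 fold change of 1.21 ± 0.15 (SE, edgeR adjusted p = 5.49e-14). Calb1 was at 452, 1306 and 2373 CPM against 719, 1765 and 3072 CPM, lower in each library, with a log2 fold change of -0.49 ± 0.15. Of the 11 markers, 6 fell (Lhx1, Onecut2, Calb1, Onecut1, Tfap2b, Sept4), 1 rose (Slc4a3) and 4 passed in neither direction (Prox1, Ndrg1, Mgarp, Gja10). Without the P11 library 3 of the 11 were called lower and 1 higher, and Onecut1 was among those that lost the call (edgeR adjusted p = 0.105). With Malat1 left out of the total 4 were called lower and 2 higher, and with TMM normalization factors 8 and 1.

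Lists of markers of other cell types summed to less than the horizontal cell list in both classes. The bipolar cell list summed to 534, 277 and 267 CPM in high-share sums against 281, 110.2 and 147 CPM in low-share sums, where Prkca and Grik1 were higher while Otx2, a defining factor, gave 4 UMIs in all high-share sums together. The amacrine list gave 691, 804 and 703 CPM against 544, 532 and 527, and the cone list 99.6, 76.1 and 196 CPM against 53.2, 37.9 and 101. The ganglion cell list summed to 1238, 1424 and 946 CPM against 2589, 2178 and 1301. Its 2 most abundant genes, the neurofilaments Nefl and Nefm, fell, while 4 of the 7 tested rose, among them Pou4f1, Rbpms and Thy1 at log2 fold changes of 2.93, 2.29 and 2.29, and Rbpms stood at 13.8, 5.44 and 2.93 CPM against 1.76, 0.559 and 3.47, lower at P11. The calls of Thy1 and Pou4f1 were lost in edgeR without P6 (adjusted p = 0.703 and 0.693), and those of Rbpms and Thy1 among barcodes with more UMIs of horizontal cell markers than of all other marker classes (adjusted p = 0.590 and 0.222). The latter condition counts Rbpms and Thy1 in the other classes and removes barcodes rich in them beforehand, so these losses are no separate test. The rod list gave 41.7, 11.6 and 78.2 CPM against 34.8, 66.0 and 42.1, higher in 2 libraries and lower in 1. Microglia markers gave 70.1, 88.4 and 61.6 CPM against 28.0, 34.9 and 29.5, and in every library C1qa, C1qb, C1qc, Csf1r, Tyrobp and Aif1, 6 of the 9, were at 0 in the high-share sum. All 7 pigment epithelium markers were at 0 there, against 0.545, 0.247 and 0.363 CPM for the list in low-share sums, levels at which a difference was not detectable at this depth. The part of these cells in the results that follow was not tested.

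The test across genes compared the summed UMIs of the high-share and low-share barcodes of each library, with the library as block, and left the mt- genes out. Of 14989 genes, 5134 were higher (34.3%) and 3312 were lower (22.1%) in high-share sums at an adjusted p under 0.05. The same sign of the ratio in all 3 libraries was found for 7819 of the 8446 called genes. A change of 2-fold or more was called up for 2108 genes and down for 1637. The median log2 fold change over all genes was 0.27, so values near it were no different from the typical gene. Scaling by TMM factors moved that median to 0.01 and the calls to 3732 higher and 4387 lower, and DESeq2 size factors gave 3478 and 3449. The 3 pairs of sums leave 2 residual degrees of freedom per gene, so the small p-values rest on a spread pooled over genes. With the library as block, that spread is of the high over low ratio among these 3 libraries, not of the levels between them.

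Depth differed between the classes, so the comparison was also made within a window of 2000 to 8000 nuclear-encoded UMIs, among barcodes with UMIs of at least 3 horizontal cell markers and fewer UMIs of all other marker classes. This depth-matched comparison held 651, 281 and 118 high-share barcodes against 2063, 229 and 276 low-share ones, with mean depths of 3526, 4847 and 5362 UMIs against 5095, 4508 and 4290.1. At P6 the low-share barcodes thus remained deeper within the window. Of 9735 genes, 150 were higher (1.54%) and 939 were lower (9.65%), around a median of 0.03. Of those 150, 149 were also called higher over all barcodes, or 3.69% of the 4034 genes called higher there that entered both tests. Of the 939, 924 were also called lower, or 31.6% of 2920. In sign, 94.8% of the genes called higher and 99.2% of the genes called lower over all barcodes went the same way when matched. The matched comparison reused most of the high-share barcodes, so the comparisons are not independent and such agreement is no separate test. Of the horizontal cell markers none was called when depth-matched, with Slc4a3 at 0.71 (edgeR adjusted p = 0.191), Lhx1 at -0.45 (edgeR adjusted p = 0.374) and the 11 together at a median of -0.04. The marker condition had selected both classes on these same markers, so this comparison cannot decide whether they differ. The matched low-share barcodes of P8 and P11 were not typical of their class. They held 83.3 and 187 CPM of Calb2, a calcium buffer of other inner retinal neurons, against 8.63 and 15.5 CPM in all low-share barcodes, and Malat1 stood at 66391 and 64481 CPM against 16014 and 22523.

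**Figure D3:**
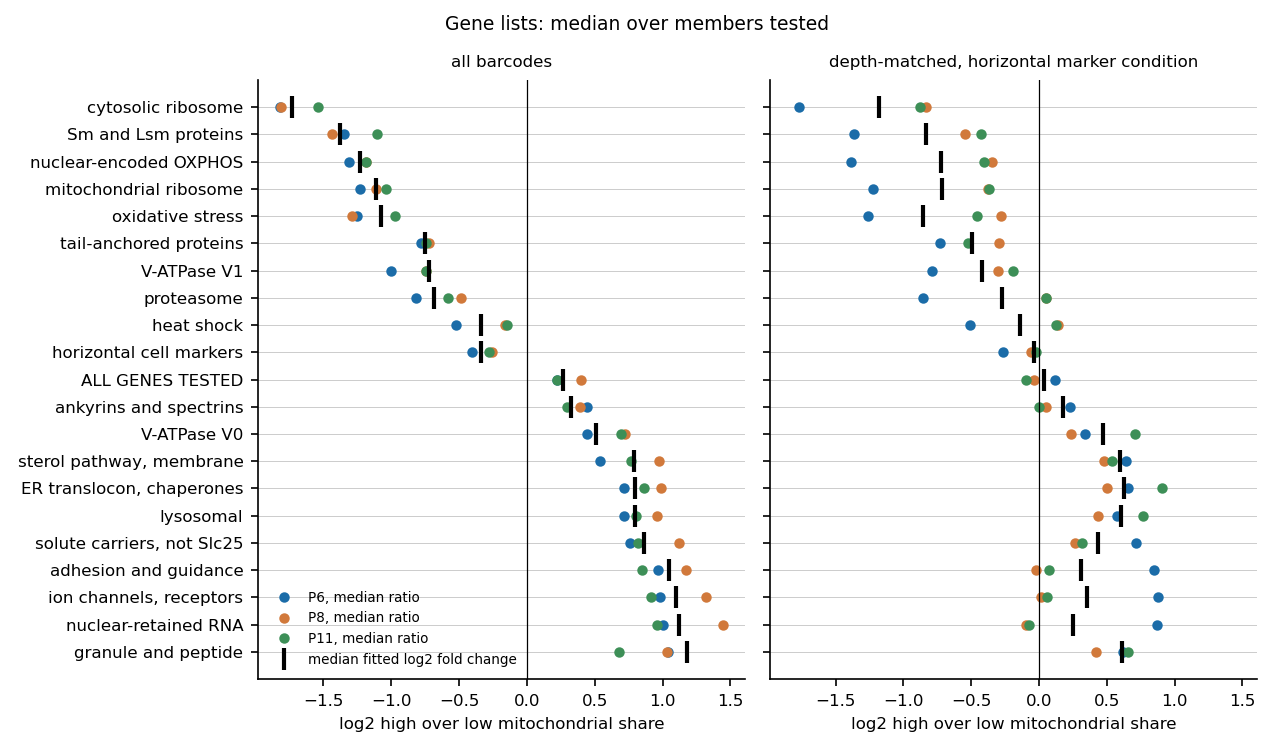
Median log2 ratio of high-share over low-share barcodes for 20 gene lists and for all genes tested (x axis; dots, 1 per library; black bars, median of the fitted log2 fold changes), over all barcodes (left) and depth-matched (right). Ribosomal and respiratory chain lists lie left of 0 and ER, lysosomal and sterol lists right of 0 in every library in both panels, while adhesion, channel and nuclear RNA lists lie near 0 at P8 and P11 on the right.

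Malat1 took up more of the remaining RNA in high-share barcodes than any other single transcript named here. It is a nuclear long noncoding RNA (chromosome 19, 5795690 to 5802672) and stood at 52467, 73430.0 and 64404 CPM in the high-share sums against 21187, 16014 and 22523 CPM in the low-share sums. All 3 high-share values lay above all low-share values, with a log2 fold change of 1.67 ± 0.22 (SE, edgeR adjusted p = 9.70e-14). In UMIs per barcode the classes were close, at 169 against 226 at P6, 339 against 297 at P8 and 397 against 452 at P11, while the total of nuclear-encoded UMIs was at 0.302, 0.249 and 0.307 times. Depth-matched, its log2 fold change was 0.55 ± 0.50 (edgeR adjusted p = 0.527), with 53641 against 20602 CPM at P6, 75276 against 66391 at P8 and 69597 against 64481 at P11. The values of the classes were closer at P8 and P11 than at P6, where the depths within the window also differed most (3526 against 5095 UMIs). Among the 19 nuclear-retained RNAs of the list, 12 rose and 3 fell, with a median log2 fold change of 1.12 against 0.27 over all genes. Snhg11 stood at 3618, 5599 and 5000.3 CPM against 1428, 1245 and 1926, and Meg3 at 6649, 2861 and 2173 CPM against 3146, 1050.1 and 1066. The 3 that fell were Gas5, Peg13 and Snhg12, of which Gas5 is a host of small nucleolar RNAs whose spliced transcript carries short reading frames. When depth-matched none of 14 was called, and the list's medians were 0.87 at P6, -0.09 at P8 and -0.08 at P11.

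Messages of the cytosolic ribosome fell throughout. All 79 ribosomal protein genes tested fell, each lower in all 3 libraries, with a median log2 fold change of -1.73 and a range from -2.16 (Rpl29) to -0.46 (Rps21). Per barcode they summed to 43.9 UMIs against 492 at P6, 78.4 against 1019.9 at P8 and 85.7 against 775 at P11, or 0.0894, 0.0769 and 0.111 times. These messages were thus lower by more than the total was. Rplp0, a protein of the ribosomal stalk (chromosome 5, 115559467 to 115563727), stood at 201, 224 and 194 CPM against 916, 1018 and 635, and no values overlapped. Its log2 fold change was -2.04 ± 0.15 (SE, edgeR adjusted p = 6.90e-40). Depth-matched, 71 of the 79 were still called lower and none higher, with a median of -1.18 and library medians of -1.77, -0.83 and -0.88. Over all barcodes, most messages for translation factors, for protein folding by CCT and for protein breakdown by the proteasome also fell. Of 66 initiation and elongation factors 42 fell and 5 rose, of 9 subunits of the CCT chaperonin 7 fell and none rose, and of 45 proteasome genes 34 fell and 1 rose. Depth-matched, 12 of 57, 0 of 8 and 2 of 44 of these were called lower, against 9.65% of all genes in that comparison. The matched proteasome medians were -0.86, 0.05 and 0.05 at P6, P8 and P11. All 23 Sm and Lsm proteins, small partners of spliceosomal RNAs, fell, with a median of -1.38, and 12 of 23 did so when depth-matched.

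The nuclear-encoded side of the respiratory chain fell although the mitochondrially encoded side, by the choice of barcodes, did not. Of 83 nuclear genes for oxidative phosphorylation 73 fell and 1 rose, with a median log2 fold change of -1.23, and of 78 mitochondrial ribosomal proteins 72 fell and none rose, with a median of -1.11. Atp5e, the small epsilon subunit of the ATP synthase, stood at 158, 239 and 197 CPM against 602, 1165 and 801, well apart in each library, with a log2 fold change of -2.08 ± 0.15 (SE, edgeR adjusted p = 1.78e-41). Uqcrq, a subunit of complex III, stood at 145, 246 and 187 CPM against 581, 957 and 692. The members did not move equally. The flavoprotein subunit of complex II, Sdha, was at 173, 286 and 284 CPM against 199, 191 and 253 and did not pass the test (log2 fold change 0.18 ± 0.13), while its iron-sulfur partner Sdhb fell by 1.53 ± 0.15 on the log2 scale. Ndufs1, a large subunit of complex I, was the 1 gene that rose, at 104, 148 and 131 CPM against 88.3, 99.7 and 109 (log2 fold change 0.36 ± 0.13, edgeR adjusted p = 0.0153). That call was lost in edgeR without P8 (adjusted p = 0.168), without P11 (adjusted p = 0.063) and under TMM scaling (adjusted p = 0.526). Cox6b2 gave no UMI in any high-share sum and was at least 1.92-fold lower over the 3 sums, with a floor of 3 counts over the group, and its edgeR call was lost without P6 (adjusted p = 0.121). Depth-matched, 31 of 78 oxidative phosphorylation genes and 31 of 78 mitochondrial ribosome genes were called lower and none higher, and the oxidative phosphorylation medians were -1.39 at P6, -0.34 at P8 and -0.41 at P11.

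Most genes for protein import, glycosylation and folding in the ER took up a larger share of the RNA. Of 32 genes for the ER translocon, glycosylation and folding, 26 rose and 5 fell, with a median log2 fold change of 0.80 against 0.27 over all genes. The ER chaperone BiP, encoded by Hspa5 (chromosome 2, 34771970 to 34777547) and counted here with the unfolded protein response, stood at 411, 372 and 436 CPM in high-share sums against 192, 149 and 201 CPM, with a log2 fold change of 1.18 ± 0.13 (SE, edgeR adjusted p = 5.11e-17). Hyou1, which works with it, stood at 37.5, 45.6 and 51.8 CPM against 16.5, 17.0 and 18.8, and the disulfide isomerase Pdia6 at 213, 258 and 228 CPM against 94.3, 101 and 85.5. In none of these did the groups overlap. Depth-matched, Hspa5 was higher by 0.99 ± 0.29 on the log2 scale (edgeR adjusted p = 0.0139), Hyou1 by 1.10 ± 0.27 (adjusted p = 0.00370), and 6 of the 32 genes were called higher and 4 lower. The list's matched medians were 0.66, 0.50 and 0.90 at P6, P8 and P11. Per barcode these messages were at 0.391, 0.341 and 0.438 times the low-share count, so they were fewer, but less so than the average message. The 5 that fell were Sec61b, Srp9, Srp14, Sec61g and Spcs1. Sec61b and Sec61g are the small tail-anchored subunits of the translocon, while Sec61a1, its large pore-forming subunit, rose by 0.97 ± 0.14. Srp9 and Srp14 are soluble subunits of the signal recognition particle, and Spcs1 is a small subunit of the signal peptidase. Sec61b stood at 33.7, 40.8 and 35.2 CPM against 152, 203 and 97.0, a log2 fold change of -2.05 ± 0.16 (SE, edgeR adjusted p = 1.14e-35), opposite to its partner.

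**Figure D4:**
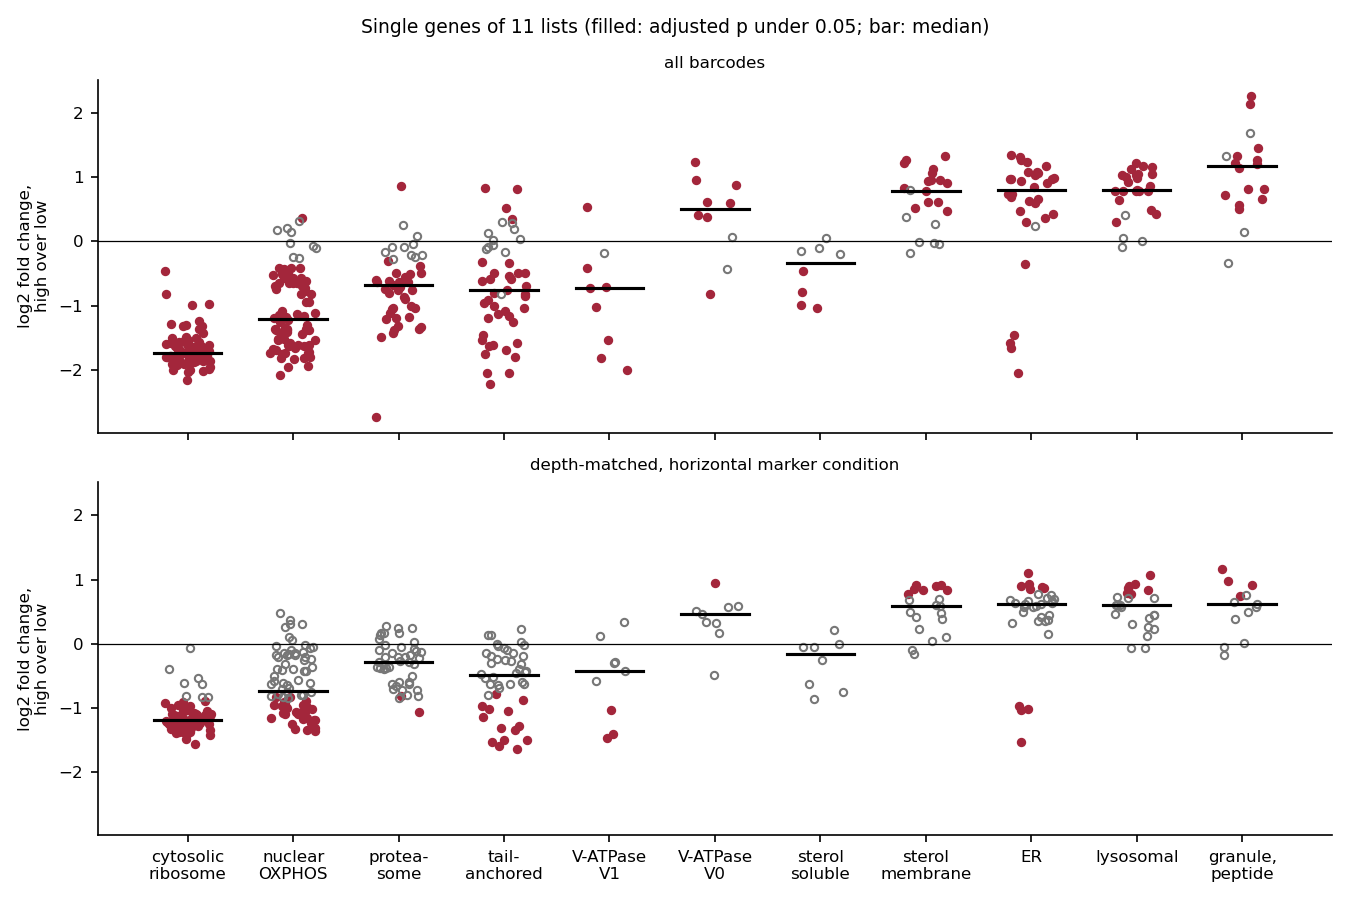
Log2 fold change of single genes (y axis, high over low share; 1 point per gene) in 11 gene lists (x axis), over all barcodes (top) and depth-matched (bottom). Filled points have an adjusted p under 0.05 and black bars are medians. Cox6b2, at 0 in high-share sums, is not drawn. The V1 and V0 sectors of the V-ATPase, with medians of -0.72 and 0.51, and the soluble and membrane enzymes of the sterol pathway, with medians of -0.33 and 0.79, lie on opposite sides of 0.

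Lysosomal and secretory granule messages rose with those of the ER. Of 26 lysosomal hydrolases and membrane proteins 22 rose and none fell, with a median log2 fold change of 0.80, and 7 of 24 were higher when depth-matched. Ctsd, the protease cathepsin D, stood at 335, 332 and 368 CPM against 181, 129 and 157, and Ctsl, cathepsin L, at 509, 846 and 718 CPM against 228, 358 and 331, each apart in every library. Ctsl was higher by 1.17 ± 0.14 over all barcodes (edgeR adjusted p = 4.49e-16) and by 1.07 ± 0.30 when depth-matched (adjusted p = 0.0116). Of 18 genes of dense core granules and peptides 14 rose and none fell, with a median of 1.18, and 4 of 13 were higher when depth-matched. Chga and Chgb are granins, the bulk proteins of these granules. Chga stood at 240.1, 185 and 162 CPM against 99.2, 73.0 and 72.5, with a depth-matched log2 fold change of 0.91 ± 0.27 (edgeR adjusted p = 0.0160). Vgf, the precursor of several neuropeptides, stood at 126, 37.4 and 5.86 CPM against 42.9, 13.5 and 3.67, higher in each library and by the least at P11. These families were chosen after the first results had been seen and describe the data only. The same holds for the translation factor, CCT, proteasome and Sm families above. It also holds for the V-ATPase, sterol pathway, tail-anchored, carrier, tetraspanin, tRNA synthetase and G protein gamma families below.

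In the V-ATPase and the sterol pathway, members of different location mostly went different ways over all barcodes. The V-ATPase acidifies lysosomes and granules through a V0 sector in the membrane and a V1 sector in the cytosol. Of 10 V0 and accessory genes 7 rose and 1 fell, and of 9 V1 genes 1 rose and 7 fell. Depth-matched, 1 of 9 in V0 was called higher and 3 of 9 in V1 lower. Atp6ap2, an accessory protein that crosses the membrane, stood at 324, 376 and 410.4 CPM against 140.4, 160.1 and 171 (log2 fold change 1.23 ± 0.13, and 0.95 ± 0.28 depth-matched, edgeR adjusted p = 0.0178). Atp6v1g1, a stalk subunit in the cytosol, stood at 115, 147 and 203 CPM against 504, 678 and 645 (log2 fold change -2.01 ± 0.15, and -1.47 ± 0.29 depth-matched, edgeR adjusted p = 4.76e-04). The 1 V0 gene that fell was Atp6v0d1, a peripheral subunit without a membrane span, at 144, 192 and 209 CPM against 305, 297 and 339. The 1 V1 gene that rose was Atp6v1h, by 0.53 ± 0.13.

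In the sterol pathway, 15 of 22 genes for membrane enzymes and regulators rose and none fell, and of 8 genes for soluble enzymes none rose and 4 fell. Depth-matched, 7 of 20 of the former were called higher and none of 8 of the latter was called. Relative to genes in the same of 5 groups by genomic span, the membrane list's median was 0.68 and the soluble list's -0.10. When depth-matched these values were 0.62 and 0.05, so the soluble list lay near other genes of its span. Scap, the membrane protein that escorts the sterol-sensing transcription factors from the ER, stood at 58.6, 68.7 and 71.3 CPM against 24.5, 26.3 and 31.7 (log2 fold change 1.27 ± 0.14, and 0.84 ± 0.26 depth-matched, edgeR adjusted p = 0.0226). Hmgcs1, a soluble enzyme early in the pathway, stood at 69.7, 74.1 and 97.7 CPM against 73.1, 64.2 and 95.5, overlapping throughout (log2 fold change 0.05 ± 0.14). Tail-anchored proteins have a membrane span at their end and enter the membrane after they are made, and of 49 such genes 34 fell and 4 rose, with a median of -0.75, and 14 of 46 were lower when depth-matched. Fis1, in the outer mitochondrial membrane, stood at 53.6, 84.3 and 107 CPM against 296, 445 and 360.2, a log2 fold change of -2.21 ± 0.15 (SE, edgeR adjusted p = 6.04e-46). Among 199 solute carriers other than the Slc25 family, 135 rose and 5 fell, with a median of 0.87, and 12 of 128 were higher when depth-matched, Slc7a8, Slc16a1 and Slc12a5 among them. Of 39 mitochondrial carriers of the Slc25 family 13 rose and 14 fell, with a median of 0.03 that was -0.22 under TMM scaling. Some other families lay near the median of 0.27 over all genes. The 16 tetraspanins tested, which cross the membrane, included 5 that rose and 2 that fell, with a median of 0.21. Among 17 cytosolic tRNA synthetases 5 rose and 3 fell, with a median of 0.13.

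**Figure D5:**
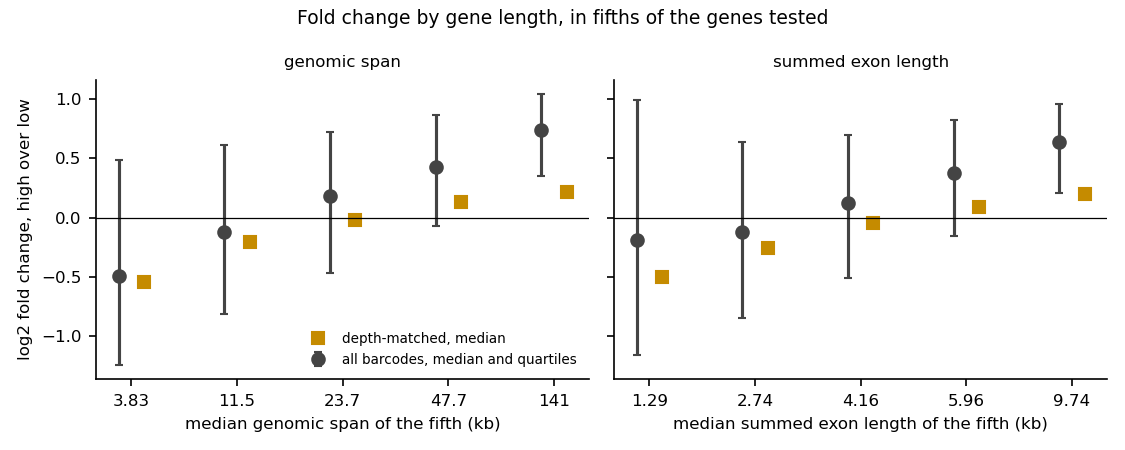
Median log2 fold change, high over low share (y axis), of the genes tested in 5 groups of equal size by genomic span (left) and by summed exon length (right); the x axis gives the median length of each group in kb. Circles with bars are all barcodes with quartiles, from -0.49 to 0.74 across the groups of span, and squares are the depth-matched medians, from -0.54 to 0.21.

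Gene length went with the fold change, and the plot of genes grouped by length shows it in both comparisons. In the group of genes with the shortest genomic span (median 3.84 kb), 447 genes rose and 1183 fell, with a median log2 fold change of -0.49. In the group with the longest span (median 141 kb), 1905 rose and 118 fell, with a median of 0.74, and medians were 0.71, 0.91 and 0.59 in the 3 libraries. Depth-matched, the medians were -0.54 and 0.21, over 1483 and 2196 of the 2997 genes in each of these groups. The median over all genes also moved, from 0.27 to 0.03, so these values alone do not show which end changed more. Exon length gave the same order, from -0.19 to 0.64 over all barcodes and from -0.50 to 0.20 depth-matched. Genes that the matched comparison called lower had a median span of 7.12 kb and those called higher 23.5 kb, against 28.3 kb over all genes in it. Length, Malat1 level and depth moved together in these barcodes, and their separate parts were not tested.

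Adhesion molecules and ion channels, which are among the longest genes, rose over all barcodes, with few calls in the depth-matched comparison. Of 45 adhesion and guidance genes 40 rose and 1 fell, with a median log2 fold change of 1.05 and a median span of 327 kb, and of 43 channels and receptors 39 rose and none fell, with a median of 1.10. Cacna1d, a voltage-gated calcium channel, stood at 75.1, 74.8 and 87.9 CPM against 30.1, 18.4 and 42.5 (log2 fold change 1.45 ± 0.14, and 0.45 ± 0.26 depth-matched). Depth-matched, 2 of 40 adhesion genes were lower and none higher, and 1 of 40 channel genes was higher. Both lists differed by library there, with medians of 0.85 and 0.87 at P6, -0.02 and 0.01 at P8, and 0.08 and 0.06 at P11. The 1 adhesion gene that fell over all barcodes was Dscaml1, with no UMI in any high-share sum and 616 in the low-share sums, and it was at least 4.35-fold lower over the 3 sums with the same floor of 3 counts. Ankyrins, the adaptor proteins named in the title of the series, included members that rose, while their list as a whole lay near the background. Ank2 stood at 3399, 2826 and 3144 CPM against 2025, 1489 and 2216 (log2 fold change 0.73 ± 0.16, edgeR adjusted p = 1.34e-05), and Ank3 at 1149.6, 513 and 515 CPM against 577, 209 and 295 (1.03 ± 0.14). Ank1 was near the lower end of detection, at 9.19, 5.44 and 3.91 CPM against 3.72, 1.58 and 1.84. Of 18 ankyrins, spectrins and partners 8 rose and 1 fell, against 34.3% and 22.1% of all genes, with a median of 0.32 against 0.27, and none of 15 was called when depth-matched, where Ank2 was at 0.40 ± 0.35 and Ank3 at 0.33 ± 0.31.

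Few stress genes other than those of the ER rose. Of 18 immediate early genes, which respond within minutes to stimulation or dissociation, 1 rose and 4 fell, with a median log2 fold change of -0.53. Over all genes 34.3% rose and 22.1% fell, so the lower calls among immediate early genes were near the share of all genes. Fos gave 4 UMIs in all high-share sums together, at 1.15, 0.680 and 0 CPM against 1.04, 0.740 and 0.635, and the ratio of the pooled values was 0.983 with a counting interval from 0.265 to 2.56. Jund, a constitutive member of the same family, stood at 79.3, 164 and 199 CPM against 317, 523 and 477, a log2 fold change of -1.65 ± 0.14 (SE, edgeR adjusted p = 2.74e-28), and -1.13 ± 0.29 depth-matched (adjusted p = 0.00532). Of 20 heat shock genes none rose and 8 fell, with a median of -0.34, and depth-matched 1 of 16 was lower, the cochaperone Fkbp4, with medians of -0.51, 0.14 and 0.12 at P6, P8 and P11. Hspa1a, the inducible member, gave 1.15, 0.680 and 0.977 CPM against 0.582, 0.608 and 0.423 and did not pass the test (edgeR adjusted p = 0.438). Of the 23 genes of the integrated stress and unfolded protein responses 11 rose and 6 fell, against 34.3% and 22.1% of all genes. The rising members included the ER residents Hspa5, Pdia4, Manf and Sdf2l1, while the transcription factor Atf4, which drives the shared arm of these responses, was lower at 41.7, 31.95 and 44.0 CPM against 88.5, 65.1 and 64.3 (log2 fold change -0.92 ± 0.15). Ddit3, its target and a cell death factor, is not counted in the list because a second feature, without UMIs here, has the same symbol. The feature ENSMUSG00000025408 of that name fell over all barcodes, with Ddit3 at 6.51, 8.16 and 8.79 CPM against 14.4, 14.9 and 17.3. Depth-matched, Atf4 was at -0.64 ± 0.27 (edgeR adjusted p = 0.111) and this Ddit3 feature at -0.67 ± 0.40 (edgeR adjusted p = 0.310).

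Genes of oxidative stress defence fell most among the stress lists. Of 30 genes 23 fell and 1 rose, with a median log2 fold change of -1.07, and 11 of 23 were lower when depth-matched. Gpx1, a glutathione peroxidase, stood at 31.8, 27.9 and 27.4 CPM against 167, 123 and 97.2, the metallothionein Mt1 at 2.68, 10.2 and 29.3 CPM against 11.0, 41.8 and 92.5, and the mitochondrial thioredoxin Txn2 at 39.1, 49.6 and 74.3 CPM against 142, 194 and 181. The median exon length of the list was 2.79 kb, against 4.16 kb over all genes. Relative to genes in the same of 5 groups by genomic span, its median log2 fold change was -1.06, and -0.55 when depth-matched. The part of length in this list was not tested. Of 28 genes of the p53 response and cell death 3 rose and 14 fell, against 34.3% and 22.1% of all genes. Depth-matched, 1 of 21 was higher and 3 were lower, against 1.54% and 9.65% of all genes. Bad, which promotes apoptosis, was lower at 24.5, 23.1 and 23.5 CPM against 95.5, 114 and 97.9, and Aifm1, a mitochondrial flavoprotein that can act in cell death, was higher at 69.3, 80.9 and 55.7 CPM against 34.4, 33.4 and 33.4 (log2 fold change 1.03 ± 0.14, and 0.85 ± 0.26 depth-matched, edgeR adjusted p = 0.0198). Cdkn1a, the p53 target p21, gave 2 UMIs in all high-share sums and 545 in low-share sums, a ratio of CPM of 0.173 with a counting interval from 0.0209 to 0.628.

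Genes that keep mitochondria in repair were called in both directions, as were genes in general. Among all genes, 34.3% rose and 22.1% fell, and when depth-matched 1.54% were higher and 9.65% lower. Of 30 genes for mitochondrial stress and protein import 7 rose and 13 fell, and depth-matched 5 of 30 were lower and none higher. The inner membrane proteases Yme1l1 and Spg7 rose, with log2 fold changes of 0.81 ± 0.14 and 0.75 ± 0.13, and the small intermembrane chaperones Timm13 and Timm8b fell, Timm13 from 421, 634 and 489.5 CPM in low-share sums to 109, 163 and 159 in high-share sums. Of 25 genes of mitophagy and autophagy 3 rose and 14 fell, and depth-matched 9 of 24 were lower and none higher. Gabarap, a small protein attached to autophagosome membranes, stood at 89.6, 111 and 116 CPM against 448, 525 and 456 (log2 fold change -2.19 ± 0.15, and -1.51 ± 0.29 depth-matched, edgeR adjusted p = 3.57e-04). Of 29 genes that copy, transcribe and translate the mitochondrial genome 8 rose and 8 fell, near the 34.3% and 22.1% of all genes, and none of 23 was called when depth-matched. In glycolysis 13 of 22 genes fell and 6 rose, and depth-matched 1 of 20 was called, in the higher direction. Gapdh stood at 518, 1131 and 1665 CPM against 1856, 3125 and 4179.9, while Slc16a1, a lactate carrier of the plasma membrane, stood at 14.2, 19.7 and 27.4 CPM against 6.33, 6.07 and 9.43 (log2 fold change 1.45 ± 0.22, and 1.21 ± 0.34 depth-matched, edgeR adjusted p = 0.0112).

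The highest and lowest fold changes were taken among called genes with the same sign in all 3 libraries and at least 50 CPM in the higher class. Highest was Nme7 (chromosome 1, 164304121 to 164437725), a nucleoside diphosphate kinase family member of microtubule organising centres, at 508, 478 and 179.8 CPM against 80.8, 72.5 and 47.9. Its log2 fold change was 2.46 ± 0.14 (SE, edgeR adjusted p = 1.22e-64), and it kept 1.37 ± 0.31 when depth-matched (adjusted p = 0.00151). Of Nr6a1, P2ry14, Malat1, Snhg11, Fgfr2, Wsb1, Ogt, Vgf, Cacna1d and Tmem63c, which were also among the 12 highest by fold, Vgf was called in the matched comparison, at 1.16 ± 0.31, and the others named were not. The 12 lowest behaved otherwise, since all 12 were called lower in both comparisons. Lowest was Cib2 (chromosome 9, 54544794 to 54560218), a small calcium-binding protein, at 6.13, 10.2 and 5.86 CPM against 61.2, 50.8 and 38.5. Its log2 fold change was -2.85 ± 0.22 (SE, edgeR adjusted p = 2.55e-35), and -2.32 ± 0.36 when depth-matched (adjusted p = 9.09e-06). Tmsb10 and Cfl1 are small actin-binding proteins. Tmsb10 stood at 363, 228 and 124 CPM against 1638, 1388 and 440.2, and Cfl1 at 213, 271 and 452 CPM against 1380.2, 1386 and 1567, more than 3-fold apart in each library. The remaining 9 were Ctxn1, Mea1, Selenow, Rtl8b, Sncb, Camk2n1, Gng3, Rnf227 and Ppdpf, with log2 fold changes from -2.68 to -2.24. Gng3 is 1 of 10 G protein gamma subunits tested, very small proteins of the inner membrane face, of which 7 fell and none rose.

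Most genes that differed between ages in low-share barcodes differed in the same direction in high-share barcodes. Of 106 genes at least 2-fold higher at P11 than at P6 in low-share sums, 105 were also higher in high-share sums, and 177 of 178 genes at least 2-fold lower were also lower. The median log2 differences of P11 over P6 were 1.33 and -1.47 in low-share sums and 1.58 and -1.48 in high-share sums. For P8 over P6 the direction was kept by 87 of 88 and by 366 of 366 genes. These are descriptions of single libraries, since each age has 1. Across 8964 genes, which are not independent replicates, the high-share sum of P11 was ranked most like the low-share sum of its own library (Spearman rho 0.874), whereas the high-share sum of P8 was ranked slightly more like the low-share sum of P6 (0.866) than like that of P8 (0.825).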

How the data were processed

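The authors deposited UMI counts per gene and barcode for 3 libraries, made with Cell Ranger 7.1.0 on mm10, per the submitters' processing notes. Which gene annotation was used, and whether reads in introns counted, is not given in the sources used here. For each library, raw counts were summed over high-share and low-share barcodes, 6 sums in all, over 32285 features, of which 78 with a duplicated symbol stayed in the tests but out of the lists. The 13 mt- genes were left out of tests and totals. Genes passing edgeR's filterByExpr were tested with edgeR 4.0.16 (R 4.3.3) quasi-likelihood tests, library as block, totals as library sizes without further scaling, and Benjamini-Hochberg adjustment over all genes. DESeq2 1.42.0 was an alternative, as were TMM factors, other limits of share, genes and depth, and leaving out each library. No doublet caller was run, and leaving out barcodes over 2 times the median depth was an alternative. Gene spans and exon lengths came from GENCODE on mm10 and matched 14984 genes. The text names genes by this rule: the 12 highest and 12 lowest fold changes among called genes with 1 sign in all libraries and at least 50 CPM in the higher class, up to 3 each way per list, and a few preset genes, 144 in all, and a few further items are not reported here. Members of families and other genes named outside it, such as Sdha, Sec61a1, Calb2 and Hmgcs1, were chosen after their values were seen. The barcodes, lists and tests were chosen with earlier results of these data known. The scripts were tested on simulated data. The labels tie no animals to libraries.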

Additional observations from a re-analysis of the deposited data

How the results depend on the processing

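Of 2512 values of named genes under alternatives, 2130 kept direction and call, 365 lost the call and 17 reversed. Among 937 list medians, 731 moved by less than the standard deviation of that list's library medians. Under TMM scaling, which moved the median over all genes from 0.27 to 0.01, 40 list medians moved further and 13 did not. In the depth window with the marker condition 33 moved further and 14 did not. There 45 named genes kept the call, 66 lost it and 4 reversed. Genes called higher and lower numbered 1331 and 1709 with no replicate block, the library being the block. With a limit of 15% the higher calls were 3290, with 20% the calls were 931 and 987, in the depth window 222 and 1171, and in the window with the marker condition 150 and 939. Leaving out each library gave 3974 to 4509 higher and 2634 to 3119 lower. Reversed values, as log2 fold changes, were -0.72 for Slc7a11 at 15%, and, at 20%, -8.53 for Notch3 (a fitted value and no bound, since barcodes above 20% held no UMI of it), -0.057 for Abcc9, -0.40 for Oma1 and 0.041 for Peg13. Slc1a3 was at 0.14 with at least 500 genes. In the depth window Calb1 was at 0.21, Prkca at -0.65, Nefm at 0.38, P2ry12 at -0.054, Slc16a3 at -0.24, Lrrtm1 at -0.077 and Onecut1 at 0.10. With the marker condition added, which itself counts Calb1, Nefm and P2ry12, Calb1 was at 0.021, Nefm at 0.14, P2ry12 at -0.0050 and Lrrtm1 at -0.026. The cause was not tested. The 20% limit leaves 71, 37 and 18 barcodes. The depth of high-share barcodes limits genes of few UMIs, and 1 library per age leaves age untested.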
